A study of Homo sapiens with 6 samples.

Results

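ATP-binding cassette (ABC) transporter genes were compared between colorectal cancer cells with CNOT7 knockdown and control cells. The members were all protein-coding genes of the count table whose symbol is ABC followed by a subfamily letter from A to G and a number, 45 of the 58735 genes listed and of the 19951 protein-coding ones. The rule uses the symbol and gene type, although the family was picked for description with earlier results of these data known. The libraries came from untreated human cells labelled SW480, a colorectal cancer line, with the genotype CNOT7 knockdown in 3 libraries and CNOT7 control in 3. The paper names HCT116 for its RNA sequencing, and the 2 names were not reconciled here. Knockdown was stable and came from an shRNA in a lentiviral vector with puromycin resistance and copGFP. The control counts are headed shNc, and the sources used here do not describe the vector of the control cells. The labels do not say which shRNA each knockdown library carried, nor whether the 3 libraries of a group came from separate cultures. The p-values therefore measure the spread between these libraries, which may be technical.

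ABC proteins bind and hydrolyse ATP at paired nucleotide-binding domains, and most of them use it to move a substrate across a membrane. Several export drugs and their conjugates from cells, and P-glycoprotein, the product of ABCB1, is the textbook multidrug efflux pump of gut epithelium and of resistant tumours. Other members move cholesterol, phospholipids, peptides, haem precursors or peroxisomal fatty acids. Subfamilies E and F have no membrane-spanning part and act in translation. CNOT7 is a deadenylase of the CCR4-NOT complex, which shortens the poly(A) tails of mRNAs.

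The stretch that codes for the ATP-binding loop (Walker A, or P-loop) is shown for ABCB1, for its neighbour ABCB4 and for ABCG2, the 2 members with the largest increases and the closest relative of the first. It lets a reader see how alike these short stretches are, not how alike the whole counted transcripts are. Each run is coding exon sequence of GRCh38, read on the gene's own strand in the 5′ to 3′ direction, and capitals mark the 8 codons that fit the loop motif, a glycine, any 4 residues, a glycine, a lysine, and a serine or threonine.
ABCB1 site 1, chr7:87550207-87550254, reverse strand, exon 13: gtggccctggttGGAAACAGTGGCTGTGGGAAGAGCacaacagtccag
ABCB4 site 1, chr7:87443355-87443402, reverse strand, exon 12: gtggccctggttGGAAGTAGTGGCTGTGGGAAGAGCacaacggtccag
ABCB1 site 2, chr7:87515270-87515317, reverse strand, exon 26: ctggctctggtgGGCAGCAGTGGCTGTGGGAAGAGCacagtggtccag
ABCB4 site 2, chr7:87408076-87408123, reverse strand, exon 25: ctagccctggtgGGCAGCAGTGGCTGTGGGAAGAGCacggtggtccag
ABCG2, chr4:88131908-88132613, reverse strand, across the junction of exons 3 and 4: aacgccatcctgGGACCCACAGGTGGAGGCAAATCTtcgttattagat
At site 1, ABCB1 and ABCB4 differed at 3 of 48 bases, 2 of them in capitals, and at site 2 they differed at 3 bases, none in capitals. The pair of sites within ABCB1 differed at 8 bases. ABCB1 site 1 and ABCG2 differed at 27. Over whole transcripts, 4.44% of the 31-base words of ABCB1 also occurred in ABCB4, and no exonic base of either gene lay in an exon of another gene.

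The targeted gene was checked first. CNOT7 read 178.7 ± 11.3 CPM (counts per 1000000 after TMM scaling, SD, n = 3) in control cells and 43.1 ± 4.31 CPM in knockdown cells, a log2 fold change of -2.05 (SE 0.0734, edgeR adjusted p = 2.64e-12). CNOT8, its closest paralogue, went from 65.6 to 80.2 CPM (log2 fold change 0.29, SE 0.0613, edgeR adjusted p = 0.00204). Library totals were 23788451 to 25982493 counts in control and 27523812 to 29104872 in knockdown, so that 3 counts, taken here as the floor of detection, corresponded to 0.101 to 0.129 CPM. Epithelial markers were abundant, with EPCAM at 212.3 and KRT8 at 2750 CPM in control, while KRT20, CDX1 and LGALS4 were too low to test. Over 11 epithelial markers, the summed level was 5555 to 5973 CPM in control and 5134 to 5684 in knockdown, and CDH1 and VIL1 were higher and KRT8 and KRT19 lower, the last pair not in every alternative (adjusted p up to 0.44 and 0.208). Sums over 5 fibroblast markers were 9.07 to 10.8 and 10.2 to 11.95 CPM in control and knockdown, over 5 leukocyte markers 2.32 to 3.55 and 3.73 to 4.37, and over 3 endothelial markers 1.64 to 2.33 and 2.62 to 3.44. DCN was at 0 in all libraries, PTPRC was at 0 in control with a mean of 0.0448 CPM in knockdown, and COL1A1, CD14 and VWF gave most of these small sums. Their part in the ABC results was not tested.

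Of the 45 members, 33 had enough counts for a test, and 13 of these passed an adjusted p of 0.05 over all 17574 tested genes. Of these, 10 were higher, among them ABCB1, ABCG2, ABCC8, ABCB4, ABCG1, ABCA1, ABCA5 and ABCA2, in order of log2 fold change, and the 3 lower ones were ABCA7, ABCF2 and ABCF1. Higher members made up 30.3% of those tested, beside 13.3% of all tested genes, and lower members 9.09%, beside 11.9%. In 17 of 33 members (51.5%) the 2 groups of libraries did not overlap, 12 with knockdown above and 5 with knockdown below, beside 38.8% of all tested genes. The median log2 fold change was 0.14 over the members and 0.0039 over all genes, and 21 members lay above 0 and 12 below. These shares describe the list and are not a test of it. The count of higher members fell to 5 without knockdown replicate 1 and to 6 without control replicate 3. Calls over all genes fell in these fits too, from 2329 of 17574 higher with all libraries to 1626 of 17796 and 1663 of 18077. ABCB1, ABCB4, ABCC8, ABCG1, ABCG2, ABCA7 and ABCF2 were called in every fit in which they were tested, all 6 that left out a library included.

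**Figure D1:**
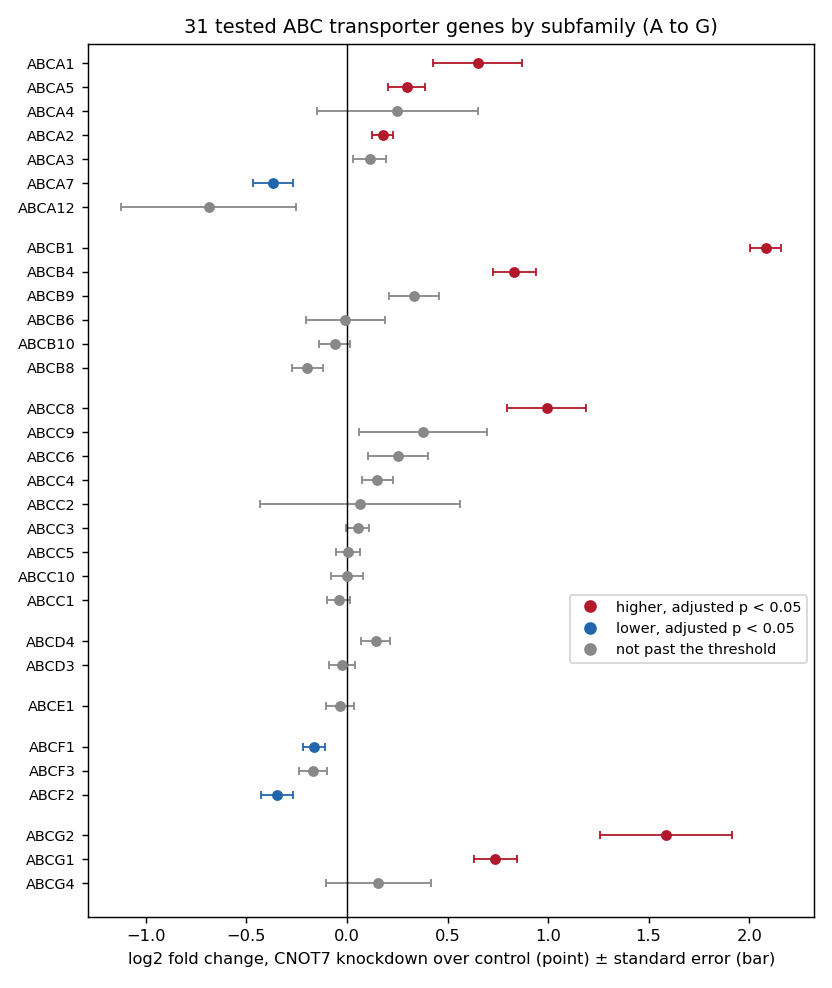
Log2 fold change of 31 of the 33 tested ABC genes (knockdown over control, x axis), grouped by subfamily from A at the top to G at the bottom, with bars of 1 standard error and colour for the call. ABCB1 stands at 2.08 and ABCG2 at 1.59, the 3 members of subfamily F lie below 0, and most of subfamily C lies close to 0.

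Summed over subfamily B, the level went from 157.7, 163.9 and 162.7 CPM in control replicates 1, 2 and 3 to 207.3, 212.3 and 212.3 CPM in knockdown, and the difference between the means is mostly ABCB1. Subfamily G went in sum from 10.3 ± 0.880 to 16.9 ± 1.21 CPM and subfamily F from 197.0 ± 5.88 to 171.8 ± 0.363 CPM, in both cases without overlap between the groups. Subfamilies G and F were not the only ones set apart, as subfamily A went from 228.3 ± 4.83 to 247.8 ± 8.22 CPM, also without overlap. These sums were compared by range only. Subfamily C, the largest by counts, had 418.7 ± 2.93 and 426.0 ± 14.5 CPM and overlapped. All members together gave 1434 ± 7.83 CPM in control and 1500.4 ± 14.6 CPM in knockdown. ABCB1 took 0.847% of that sum in control cells and 3.43% with CNOT7 knockdown.

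ABCB1 (ENSG00000085563) had the largest difference of the tested members. The gene occupies positions 87503633 to 87713323 of chromosome 7 (GRCh38, reverse strand) and encodes P-glycoprotein, which pumps many unrelated drugs out of cells. Control replicates 1, 2 and 3 had 11.6, 12.3 and 12.6 CPM, and the knockdown replicates 50.1, 54.0 and 50.3 CPM. The lowest knockdown library was thus far above the highest control library, and the spread within a group was small beside the gap. The mean went from 12.2 ± 0.475 to 51.5 ± 2.21 CPM (SD, n = 3), 4.24-fold, a log2 fold change of 2.08 (SE 0.0775, edgeR adjusted p = 4.47e-12). Over the 13 alternative fits the log2 fold change lay between 2.05 and 2.11. Per kilobase of exon, ABCB1 moved from rank 19 among the 45 members (2.09 CPM per kb) to rank 9 (8.87 CPM per kb). In bulk libraries like these, a change in the number of cells that express a gene and in its RNA per cell cannot be told apart.

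ABCG2 (ENSG00000118777, chromosome 4, 88090264 to 88231322, reverse strand) encodes BCRP, a drug pump of apical membranes that also exports urate and porphyrins. It was scarce. Its raw counts were 8, 12 and 10 in control and 34, 38 and 33 in knockdown, or 0.311, 0.516 and 0.399 against 1.21, 1.38 and 1.11 CPM. The groups did not overlap, and the ratio of means was 3.01 (log2 fold change 1.59, SE 0.327, edgeR adjusted p = 0.00173). With at least 10 counts required in every library it could not be tested. Even after the increase its level was 0.244 CPM per kb, beside 8.87 for ABCB1 and 20.5 for ABCC1.

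The multidrug resistance proteins of subfamily C, which export drugs, glutathione conjugates and other organic anions, gave no call. ABCC1 (MRP1), at rank 3 per kilobase in both groups, had 157.7, 160.5 and 162.0 CPM in control and 162.6, 144.4 and 159.5 CPM in knockdown. Its log2 fold change was -0.04, with an interval of 2 standard errors from -0.16 to 0.07 (edgeR adjusted p = 0.648). ABCC3 (MRP3), a basolateral exporter of conjugated bile acids, had 106.9, 97.0 and 101.7 CPM beside 108.7, 102.0 and 106.5 CPM, a log2 fold change of 0.05 (-0.06 to 0.17). For ABCC4 (MRP4), an exporter of cyclic nucleotides and prostaglandins, the values were 43.3, 46.2 and 46.0 CPM in control and 53.7, 52.5 and 44.2 CPM in knockdown. Knockdown replicates 1 and 2 were above the control range and replicate 3 was inside it, and the log2 fold change was 0.15 (-0.0041 to 0.30, edgeR adjusted p = 0.173). Without that library the adjusted p was 0.0329. ABCC5 and ABCC10 had log2 fold changes of 0.0057 and -0.0021, and their intervals, -0.11 to 0.12 and -0.16 to 0.16, exclude a change as large as that of ABCB1 or ABCG2. ABCC2 (MRP2), the apical exporter of bilirubin conjugates, had 4, 16 and 8 raw counts in control and 11, 14 and 9 in knockdown. Its interval, -0.93 to 1.06, lay below the log2 fold changes of ABCB1 and ABCG2. It was too wide to tell a smaller change in either direction at this depth.

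**Figure D2:**
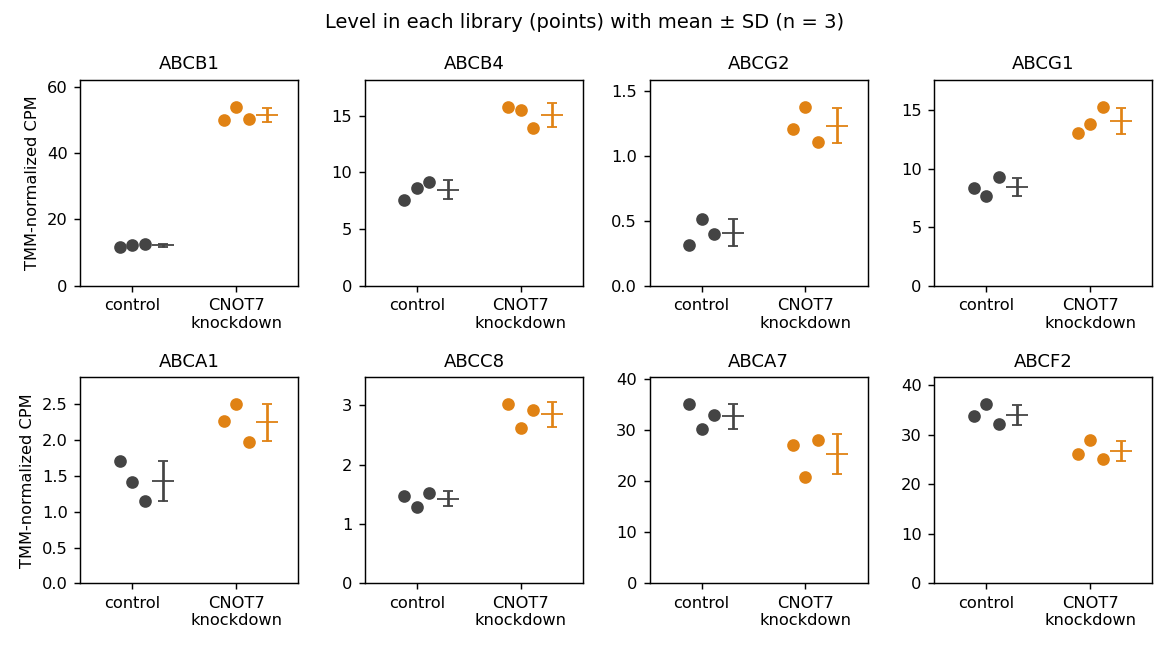
TMM-normalized CPM (y axis, from 0) in each library for 8 ABC genes, with control in grey, CNOT7 knockdown in orange, and the mean ± SD (n = 3) beside the points. The groups do not overlap in any panel, with ABCB1 between 11.6 and 12.6 CPM in control and between 50.1 and 54.0 CPM in knockdown.

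ABCB4 (ENSG00000005471, chromosome 7, 87401697 to 87480435, reverse strand) lies just beyond the 3′ end of ABCB1 and encodes the floppase that moves phosphatidylcholine into bile. Its level was 7.55, 8.64 and 9.18 CPM in control and 15.8, 15.5 and 13.9 CPM in knockdown. Every knockdown library exceeded every control library, and the mean rose from 8.46 ± 0.830 to 15.1 ± 1.04 CPM (SD, n = 3; log2 fold change 0.83, SE 0.107, edgeR adjusted p = 1.98e-05). The difference of 6.60 CPM was smaller than that of ABCB1, 39.3 CPM. Of its 31-base words, 5.24% also occur in another gene, nearly all of them in ABCB1, and how the counting treated reads that match both genes is not stated in the sources used here. Other tested members of the subfamily act inside cells. ABCB8 and ABCB10, which are mitochondrial, had log2 fold changes of -0.20 (edgeR adjusted p = 0.0765) and -0.06, and ABCB6, a porphyrin transporter with 92.1% of its words shared with the read-through gene AC068946.2, had -0.0089. ABCB9, a lysosomal peptide transporter, stood at 11.0 ± 1.77 and 13.9 ± 1.79 CPM (log2 fold change 0.33, edgeR adjusted p = 0.0571), and 24.5% of its exonic bases overlap exons on the other strand, which the library kit does not tell apart. Without knockdown replicate 3, ABCB8 was called (adjusted p = 0.0289), and without control replicate 3 or knockdown replicate 2, ABCB9 was (0.0359 and 0.0303).

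Lipid transporters of subfamily A moved both ways, while all 3 tested members of subfamily G, ABCG2 included, lay above 0. ABCG1 (ENSG00000160179, chromosome 21, 42199689 to 42297244), which passes cholesterol to lipoprotein particles, had 8.33, 7.70 and 9.30 CPM in control and 13.1, 13.8 and 15.3 CPM in knockdown. It rose 1.67-fold without overlap (log2 fold change 0.74, SE 0.108, edgeR adjusted p = 7.91e-05). ABCA1 (ENSG00000165029, chromosome 9, 104781002 to 104928237), the pump that loads cholesterol onto apolipoprotein A-I, was low, with 1.71, 1.42 and 1.16 CPM in control and 2.27, 2.50 and 1.98 CPM in knockdown. Its groups did not overlap and its log2 fold change was 0.65 (SE 0.222, edgeR adjusted p = 0.0398), but DESeq2 gave 0.0857. The call was also lost without control replicate 2 (adjusted p = 0.0768), control replicate 3 (0.175), knockdown replicate 1 (0.104) or knockdown replicate 2 (0.108). With cyclic loess offsets or with no count filter it was lost too, so ABCA1 was called in 6 of 13 alternatives.

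ABCA7 (ENSG00000064687, chromosome 19, 1040101 to 1065572), a phospholipid transporter with a role in phagocytosis, was the only member of its subfamily called lower. It read 35.0, 30.1 and 32.9 CPM in control and 27.1, 20.9 and 28.0 CPM in knockdown, a log2 fold change of -0.37 (SE 0.0993, edgeR adjusted p = 0.0114), with every knockdown library below every control library. ABCA2, an abundant lipid transporter of lysosomes, rose from 162.2, 154.1 and 157.8 to 185.2, 173.1 and 177.6 CPM, a log2 fold change of 0.18 (SE 0.0532, edgeR adjusted p = 0.0213). ABCA5, another lysosomal member, rose from 15.9, 19.9 and 18.0 to 22.2, 22.8 and 21.1 CPM, a log2 fold change of 0.30 (SE 0.0919, edgeR adjusted p = 0.0245). Both had groups that did not overlap, and both depended on single libraries. ABCA2 lost its call without control replicate 2 (adjusted p = 0.0632), control replicate 3 (0.0944) or knockdown replicate 1 (0.161), and ABCA5 without control replicate 1 (0.141), control replicate 3 (0.0743) or knockdown replicate 1 (0.0931). With no count filter ABCA2 was not called either. ABCA3, the surfactant lipid transporter, stood at 16.9 ± 0.406 and 18.2 ± 0.107 CPM, did not overlap and did not pass (edgeR adjusted p = 0.352). ABCA4, a retinoid transporter of photoreceptors, and ABCA12, a keratinocyte lipid transporter, were under 1 CPM in every library. ABCA12 had 0.856, 0.645 and 0.997 CPM in control beside 0.284, 0.978 and 0.302 CPM in knockdown. Knockdown replicate 2 stood with the controls, and without it the adjusted p went from 0.273 to 0.0178. ABCG4, a sterol transporter best known from brain, had a log2 fold change of 0.16 (SE 0.261).

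ABCC8 (ENSG00000006071, chromosome 11, 17392498 to 17476879, reverse strand) encodes SUR1, the sulphonylurea receptor of the ATP-sensitive potassium channel, and does not itself pump a drug. It had 1.48, 1.29 and 1.52 CPM in control and 3.02, 2.61 and 2.92 CPM in knockdown, with a clear gap between the groups. The log2 fold change was 0.99 (SE 0.197, edgeR adjusted p = 0.00129). For its paralogue ABCC9 (SUR2), under 1.2 CPM in every library, the log2 fold change was 0.38 (SE 0.317, edgeR adjusted p = 0.424). ABCC6, whose loss causes pseudoxanthoma elasticum, had 4.88 ± 0.769 and 5.81 ± 0.602 CPM, and 18.8% of its words are shared, chiefly with its pseudogenes ABCC6P1 and ABCC6P2.

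ABCD3, a peroxisomal importer of fatty acyl-CoA, had a log2 fold change of -0.03 (-0.16 to 0.11 at 2 standard errors) and ABCD4, of lysosomal cobalamin transport, 0.14 (-0.0010 to 0.29).

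ABCE1, which splits ribosomes after termination, was the most abundant member per kilobase in both groups, at 31.4 and 30.6 CPM per kb, and its log2 fold change was -0.03 (-0.18 to 0.11). Of its exonic bases, 11.9% overlap exons on the other strand, and 21.2% of its words also occur in other genes. ABCF2 (ENSG00000033050, chromosome 7, 151212490 to 151227230), a ribosome-associated ATPase, fell from 33.8, 36.1 and 32.1 CPM to 26.1, 28.8 and 25.1 CPM (log2 fold change -0.35, SE 0.0789, edgeR adjusted p = 0.00348), and the groups did not overlap. Of its words, 56.8% are shared, mostly with the read-through gene AC021097.2, which itself had a mean of 0.0976 CPM in control and 0.0112 CPM in knockdown. ABCF1, which acts with initiation factor eIF2, fell from 114.7, 111.3 and 108.0 CPM to 99.5, 99.5 and 98.6 CPM, by 0.17 on the log2 scale (SE 0.0545, edgeR adjusted p = 0.0331). That call was lost without control replicate 1 (adjusted p = 0.136), control replicate 2 (0.0547), control replicate 3 (0.0703), knockdown replicate 1 (0.0852) or knockdown replicate 3 (0.0703), and with a cyclic loess correction for abundance (0.131). ABCF3, of the general amino acid control pathway, had 54.7, 48.8 and 51.4 CPM beside 46.0, 43.2 and 48.5 CPM, did not overlap and did not pass (edgeR adjusted p = 0.0853, and 0.048 without control replicate 2).

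**Figure D3:**
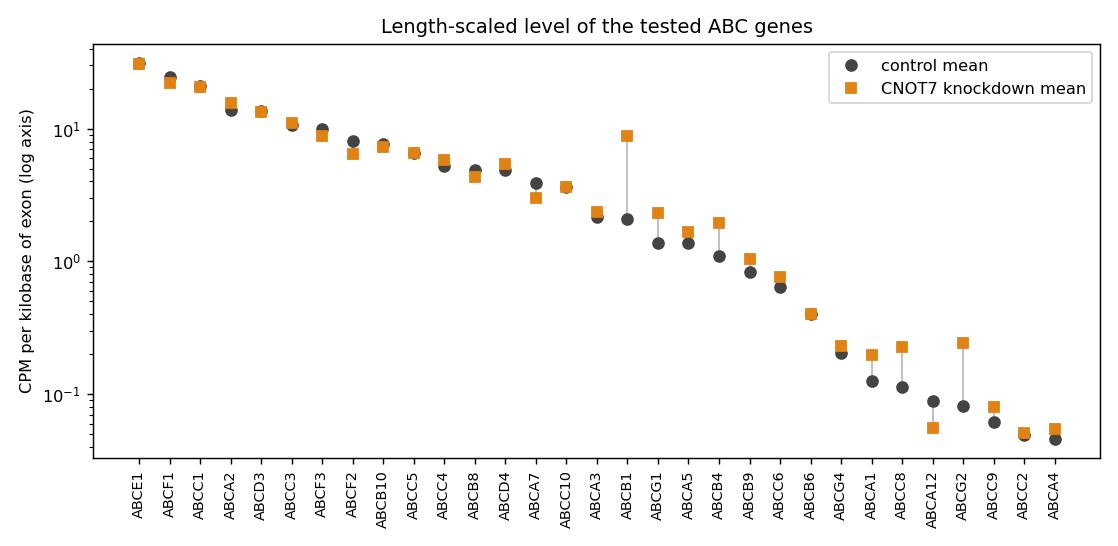
Mean level of 31 tested ABC genes per kilobase of exon (log axis), ordered by the control mean, with control as grey circles and CNOT7 knockdown as orange squares. ABCE1 is highest in both groups at 31.4 and 30.6 CPM per kb, and ABCB1 moves from 2.09 to 8.87 CPM per kb past 10 other members.

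The remaining 12 members had too few counts for a test. ABCA6, ABCA9, ABCB11 (the bile salt pump) and ABCD2 had no count in any library. The highest count in any library was 3 for ABCA8, 2 for ABCA10, 9 for ABCA13, 2 for ABCB5, 4 for ABCC11, 14 for ABCC12, 8 for ABCG5 and 3 for ABCG8. ABCG5 and ABCG8, the paired sterol exporters of gut and liver, thus stood near or below the floor in most libraries, and no direction was read for them. Among members with a mean under 5 CPM, 3 of 9 were higher, beside 12.9% of 6074 such genes. Among those at or above 5 CPM, 7 of 24 were higher, beside 13.4% of 11500 genes, and 3 were lower. The share of lower genes was taken over all tested genes only and was 11.9%. The median log2 fold change of the scarcer genes was 0.15 over all of them and 0.25 over the members, and of the more abundant ones -0.03 and 0.08.

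Because ABCB1 and ABCB4 are adjacent and rose together, the genes around them were also read. Of 12 other protein-coding genes lying at least in part within 1 Mb of ABCB1, 10 were tested, 5 were higher and 1 was lower, beside 13.3% higher and 11.9% lower of all tested genes. The 5 include ABCB4, whose rise prompted the reading, so the count is a description only. RUNDC3B, which overlaps the start of ABCB1 on the other strand from 87627548 to 87832296, had 0.70, 1.55 and 0.997 CPM in control and 2.24, 3.15 and 3.39 CPM in knockdown. It rose by 1.45 on the log2 scale (SE 0.264, edgeR adjusted p = 6.19e-04), no exon of it overlaps an exon of ABCB1, and its level stayed far below that of ABCB1. Part of RUNDC3B lies within the ABCB1 gene, and the library kit does not tell the strands apart. Whether reads from unspliced ABCB1 RNA were counted for RUNDC3B was not tested. ADAM22, on the other side, went from 58.4 ± 5.71 to 75.5 ± 4.86 CPM (log2 fold change 0.37, edgeR adjusted p = 0.00129). CROT, a peroxisomal carnitine acyltransferase gene next to ABCB4, had a log2 fold change of 0.29 (edgeR adjusted p = 0.0183), and KIAA1324L of 0.27 (edgeR adjusted p = 0.0467). SLC25A40 fell by 0.19 on the log2 scale (edgeR adjusted p = 0.0436), while DBF4, DMTF1, TMEM243 and SRI, between -0.07 and 0.15, did not pass. CROT lost its call without control replicate 1, control replicate 3 or knockdown replicate 2 (adjusted p 0.104, 0.0545 and 0.0594). The calls of KIAA1324L and SLC25A40 were lost without any of several libraries, the former without control replicate 1 or 3 or any knockdown replicate (0.0594 to 0.212), the latter without control replicate 2 or 3 or knockdown replicate 1 or 3 (0.0902 to 0.159). KIAA1324L also lost it under DESeq2 (0.0533), whereas RUNDC3B and ADAM22 kept theirs in all 13 alternatives. In these, KIAA1324L was called in 6 and SLC25A40 in 8. Among the genes tested here, the log2 fold changes were largest at ABCB1, RUNDC3B and ABCB4, while DBF4, SLC25A40 and ADAM22, whose starts lie closer to that of ABCB1 than the start of ABCB4 does, went either way or did not pass.

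**Figure D4:**
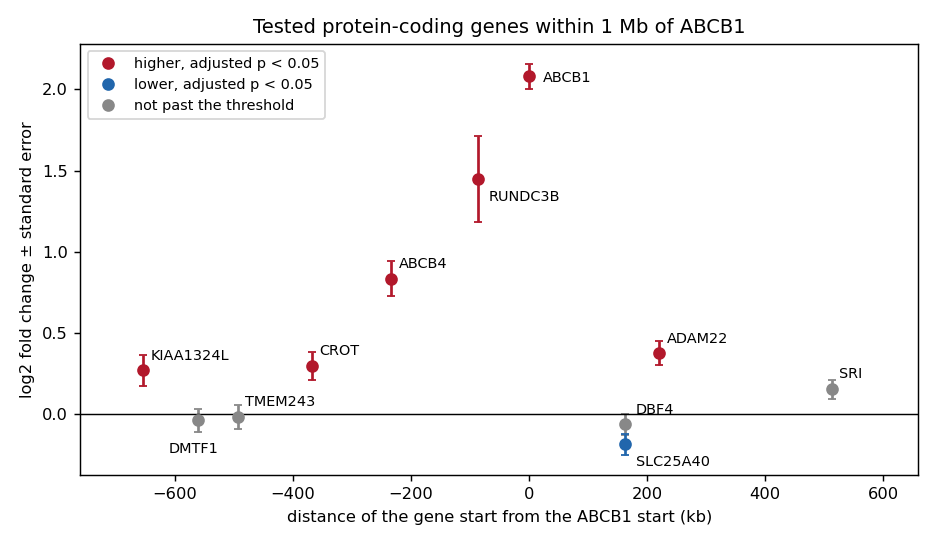
Log2 fold change ± standard error (y axis) of the tested protein-coding genes around ABCB1, against the distance in kb between their start and the ABCB1 start (x axis, negative towards ABCB4). ABCB1 at 2.08, RUNDC3B at 1.45 and ABCB4 at 0.83 stand above the rest, which lie between -0.19 and 0.37.

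Genes that work with ABC transporters were read from lists of sensors, sterol genes, uptake carriers, conjugating enzymes, peroxisomal partners and translation factors. Together with the neighbours of ABCB1 and without members, 70 of their 81 genes were tested, of which 17 were higher and 10 lower, with a median log2 fold change of 0.05. Of all tested genes 13.3% were higher and 11.9% lower, and the count of each short list is read beside those shares. Among the nuclear receptors and other sensors that induce drug exporters, 3 of 11 tested were higher and 1 was lower. PPARG rose from 7.66 ± 0.738 to 14.2 ± 0.504 CPM (log2 fold change 0.89, edgeR adjusted p = 8.76e-06), VDR, the vitamin D receptor, from 162.4 ± 4.95 to 219.6 ± 6.07 CPM (0.43, edgeR adjusted p = 1.08e-05) and PPARA by 0.30 on the log2 scale. KEAP1, the inhibitor of the antioxidant factor NRF2, fell by 0.43, from 75.9 ± 5.36 to 56.3 ± 2.83 CPM (edgeR adjusted p = 1.44e-04). NFE2L2, which encodes NRF2, had a log2 fold change of -0.10 (edgeR adjusted p = 0.368). NR1I2, the gene of the pregnane X receptor PXR that induces ABCB1, had no count in control, a mean of 0.0594 CPM in knockdown, and could not be tested.

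The sterol list, made of the LXR receptors and their usual targets other than ABC genes, had 2 higher and 4 lower among 9 tested. PLTP, a phospholipid transfer protein gene, rose by 0.46 on the log2 scale and MYLIP, which targets the LDL receptor, by 0.33. SREBF1, a driver of fatty acid synthesis and a classical LXR target, fell by 0.49, from 155.0 ± 8.90 to 110.1 ± 5.13 CPM (edgeR adjusted p = 1.09e-05). NR1H2 (LXR beta) and SMPDL3A fell by 0.24 and 0.57, and NR1H3 (LXR alpha) had a log2 fold change of 0.09 (edgeR adjusted p = 0.53). ABCA1 and ABCG1, also LXR targets, were higher, so genes of this list and these members did not share a direction. ABCA1 kept its call in 6 of 13 alternatives only. NR1H2 lost its call without control replicate 1 or 3, and SMPDL3A without control replicate 1 or 3 or knockdown replicate 1 or 2, or under DESeq2. Over all alternatives, their highest adjusted p-values were 0.0646 and 0.21.

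Uptake carriers, which bring drugs into cells, gave 3 higher and 1 lower among 10 tested. SLC47A1 (MATE1), an exporter of organic cations placed in this list, rose from 6.84 ± 0.467 to 13.5 ± 0.767 CPM (log2 fold change 0.98, edgeR adjusted p = 3.32e-06). The peptide carrier SLC15A1 rose by 1.29 on the log2 scale, from 0.636 ± 0.188 to 1.56 ± 0.257 CPM, and the organic cation carrier SLC22A3 by 1.03, from 0.823 ± 0.108 to 1.69 ± 0.412 CPM. The nucleoside carrier SLC29A2 fell by 0.28 (edgeR adjusted p = 0.00665). The call of SLC22A3 was lost without control replicate 3 or knockdown replicate 2, with an adjusted p of up to 0.0533. Of 12 tested genes of glutathione synthesis and conjugation, whose products MRP proteins export, 3 were higher (GSTA4 by 0.57, MGST2 by 0.36 and GSS by 0.22 on the log2 scale) and GSTM4 was lower, by 0.33. GSTP1, the most abundant transferase here, had 398.8 ± 25.5 and 395.4 ± 21.0 CPM. Peroxisomal partners of subfamily D gave 2 higher of 8, HSD17B4 by 0.32 and EHHADH by 0.24, both enzymes of peroxisomal β-oxidation. Translation partners of ABCE1 and subfamily F gave 2 lower of 9, the release factor gene ETF1 by 0.19 and the ribosome rescue gene PELO by 0.24. Of the other ABC proteins, the peptide transporters TAP1 and TAP2 had log2 fold changes of 0.05 and -0.04, and CFTR was too low to test. Calls that depended on single libraries were those of GSTA4 (lost without control replicate 1, 2 or 3 or knockdown replicate 1), GSS (control 2, knockdown 1 or 3) and GSTM4 (control 3). The same held for EHHADH (control 2 or 3, knockdown 1 or 2), ETF1 (control 2, knockdown 1 or 3) and PELO (control 1 or 3, knockdown 1). Method mattered too, as GSTA4 was not called under DESeq2 or cyclic loess offsets, and ETF1 not under the latter. The highest adjusted p over all alternatives was 0.253 for GSTA4, 0.0922 for GSS, 0.0746 for GSTM4, 0.122 for EHHADH, 0.0821 for ETF1 and 0.117 for PELO.

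**Figure D5:**
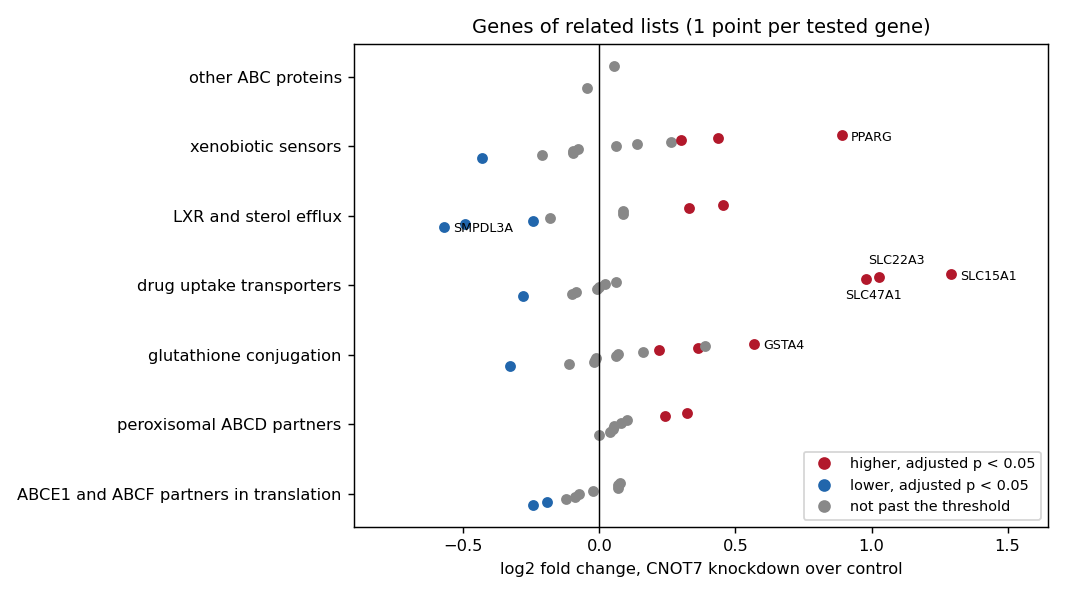
Log2 fold change (x axis) of tested genes of the 7 related lists (rows, 1 point per gene, spread vertically for legibility), coloured by call. Most points lie within 0.5 of 0, and PPARG, SLC15A1, SLC22A3 and SLC47A1 stand to the right, at 0.89, 1.29, 1.03 and 0.98.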

How the data were processed

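Per the labels, total RNA was extracted with TRIzol and sequenced from libraries made with the NEBNext Ultra RNA kit. The submitters' processing notes name CASAVA 1.8, fastp, HISAT2 2.0.5, featureCounts 1.5.0-p3 and DESeq2 1.20.0. The authors deposited raw counts per gene, without normalization; strand and multiple-match settings are not given in the sources used here. Gene IDs matched GENCODE 29 on GRCh38, 58724 of 58735 with the same start and end. The number of sample columns not used was 0.

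Counts were filtered with filterByExpr, scaled with TMM and compared between 3 knockdown and 3 control libraries with edgeR 4.0.16 in R 4.3.3 (quasi-likelihood test, Benjamini-Hochberg over 17574 genes, threshold 0.05). The standard error is the log2 fold change divided by the root of F. Named were members past the threshold, the main drug and cholesterol exporters, other tested members, and at most 6 genes past the threshold per related list. Members and lists were chosen with earlier results of these data known. Within a group, pairs of libraries gave a chi-square per degree of freedom of 3.21 to 10.8, so none was a copy. Alternatives were DESeq2 1.42.0, other scaling and filters, cyclic loess offsets (limma 3.58.1), a replicate block, and leaving out each library. Steps were tested on simulated data. Intervals and floors cover counting error or library spread only. Tables and plots used Python 3.11.15, pandas 2.3.3, numpy 2.4.6 and matplotlib 3.10.9. Results for some genes are not reported here; they are counted in the totals but not named or drawn.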

Additional observations from a re-analysis of the deposited data

How the results depend on the processing

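No called result reversed under any alternative, and CNOT7 stayed called in every fit, between -2.13 and -1.98 with a library left out. Leaving out single libraries gave 5 to 9 higher and 2 to 4 lower members, and 12 to 15 higher and 4 to 12 lower genes of the related lists. Over all genes tested in these fits, 1626 to 2323 were higher and 1367 to 2219 lower. Same-numbered libraries deviated from their group means with correlations of 0.023, 0.153 and -0.015. Libraries of unlike number gave -0.151 to 0.132, so the value for replicate 2 was the highest of all pairs. Whether libraries of the same number were handled together was not tested, and the main fit used no pairing. With the replicate block, 13 members were higher and 5 lower, beside 10 and 3 without it, and over all genes 3202 were higher and 3306 lower, beside 2329 and 2095. DESeq2, RLE scaling, a minimum of 10 counts in every library, cyclic loess offsets, no count filter and protein-coding genes alone gave 7 to 10 higher and 2 to 4 lower members. In the same fits, 1992 to 2268 of all tested genes were higher and 1796 to 2342 lower. Depth limits ABCG2, ABCC2, ABCA4 and ABCA12, which had few counts, and the 12 untested members.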
